A study of Mus musculus with 6 samples.

Results

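The genes described here are 10 enzymes that build triglyceride: Gpam, Gpat3, Gpat4, Agpat2, Agpat3, Lpin1, Dgat1, Dgat2, Mogat1 and Mogat2. They were taken by gene name from a table of 54532 genes, of which 16623 passed the filter on low counts and were tested, the 10 among them. RNA came from inguinal white adipose tissue, the subcutaneous fat depot of the groin. The 3 Cdo1AKO samples came from mice in which Cdo1, the gene of cysteine dioxygenase 1, was knocked out in adipose tissue. The 3 control samples came from mice with floxed Cdo1 alleles, called WT in the genotype field of the labels. Mice of both groups were 8 weeks old when a high-fat diet began and stayed on it for 15 weeks. The Cre line that drives the deletion, the sex and the strain are not stated in the labels. Nothing in the labels says whether each sample is 1 animal, so each p-value measures only how far these samples spread, and that spread may be technical.

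Most triglyceride in fat cells is made by the glycerol phosphate pathway. A fatty acyl group is joined to glycerol 3-phosphate by a glycerol-3-phosphate acyltransferase, a further group is added by an acylglycerolphosphate acyltransferase to give phosphatidate, a lipin removes the phosphate to leave diacylglycerol, and a diacylglycerol acyltransferase adds the last acyl group. A shorter route acylates monoacylglycerol directly to diacylglycerol; it is best known from the intestine, where it rebuilds absorbed fat. In humans, loss of AGPAT2 causes a near-complete absence of fat tissue, and mice without Lpin1 are lipodystrophic.

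Libraries held 16275184 to 19205804 counts. Levels are given as CPM, the count scaled to a common depth by the TMM-scaled library size, and comparisons between genes as CPM per kilobase of the gene length listed in the table. The targeted gene, Cdo1, had 123, 392 and 134 CPM in Cdo1AKO 1 to 3, against 887, 432 and 631 CPM in control 1 to 3 (log2 fold change -1.59 ± 0.53, SE, edgeR adjusted p = 0.416). Adipocyte identity was clear in each library, with Adipoq, the adiponectin gene, at 1492 to 2801 CPM in Cdo1AKO and at 2171 to 3077 CPM in controls. Cdo1AKO 2 and control 1 lacked the lymph node and B cell transcripts of the other 4 libraries: the summed CPM of 13 such markers was 7.72 in Cdo1AKO 2 and 6.38 in control 1, and 730.7 to 1295 elsewhere. Cdo1AKO 1 and 3 were much alike, with counts that differed by 5.65 times the sampling variance per gene, against 231 and 244 times for Cdo1AKO 2 with either of them and 25.7 to 89.9 times between controls. Results are therefore also given without Cdo1AKO 2 and within the 4 libraries that hold lymph node transcripts.

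Transcripts of the first step, the 3 glycerol-3-phosphate acyltransferases, had mean levels in Cdo1AKO of 0.478 (Gpam), 0.432 (Gpat3) and 0.442 (Gpat4) of the control mean by the edgeR fit, and for each of them the highest Cdo1AKO level was under the lowest control level. Those of the later steps did not move as one. In Cdo1AKO 1 and 3 all of them but Mogat2 were below all controls, as were 27.0% of all tested genes. The log2 fold change by edgeR was -1.22 for Lpin1 and -0.78 for Dgat1, whose groups overlapped. Agpat2 and Dgat2 were below controls in Cdo1AKO 1 and 3 and far above them in Cdo1AKO 2, while Mogat2, the rarest of the 10 by group mean, was higher in all Cdo1AKO libraries. Over all genes, 0 passed the edgeR quasi-likelihood test at a Benjamini-Hochberg adjusted p under 0.05 (0.0% of 16623), with 1724 at an unadjusted p under 0.05 (10.4%). Limma-voom called 0, DESeq2 called 271 (1.48%) and the authors' deposited table holds 275 (1.0%). Of the 10 enzymes, 0 passed in edgeR. Gpam, Gpat3 and Gpat4 passed as lower in the authors' deposited table, 3 of the 10 against 0.655% of all genes it compares, and Mogat2 passed as higher, 1 of the 10 against 0.346%. DESeq2 on the same counts called the same 4 genes, 3 lower against 0.968% of all genes and 1 higher against 0.514%.

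**Figure D1:**
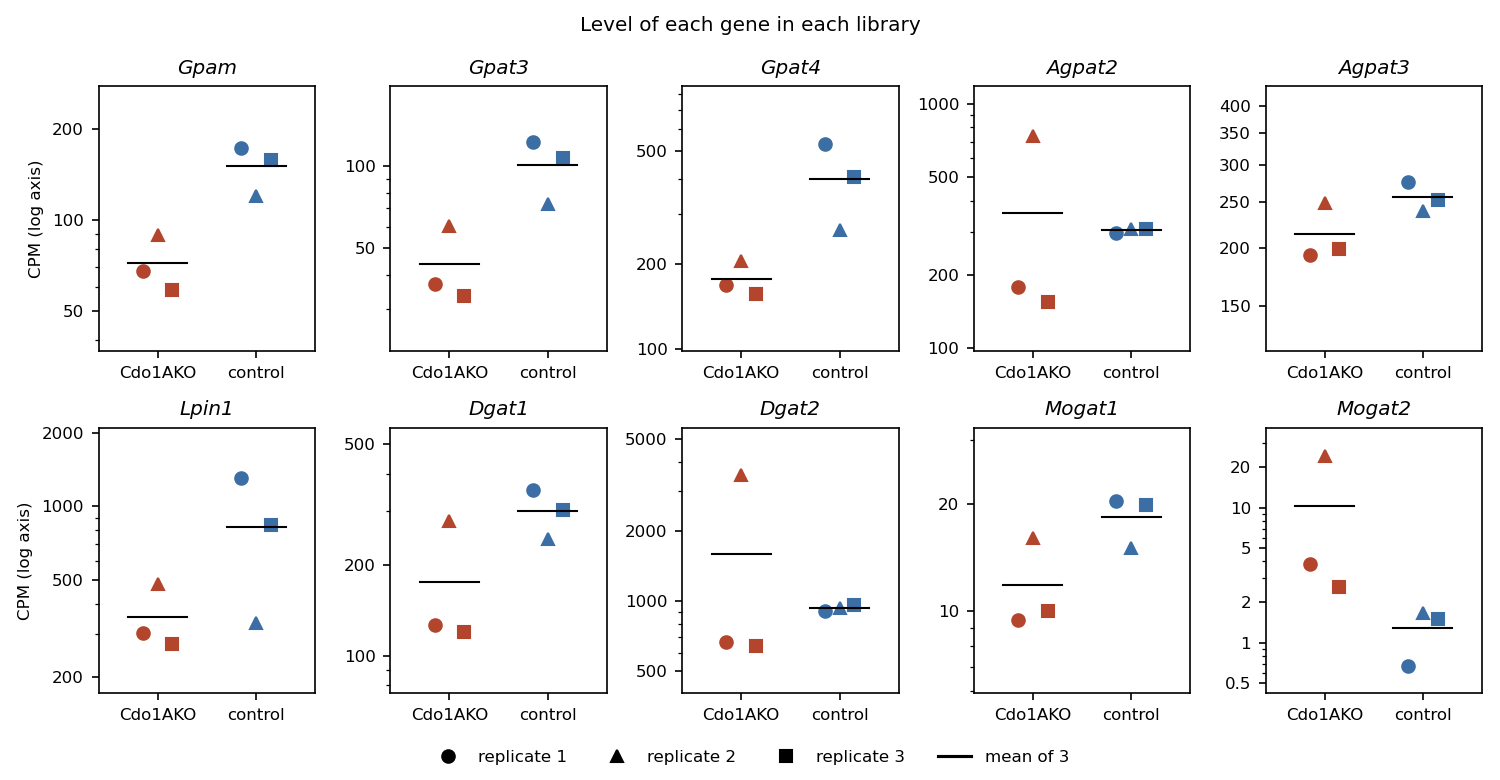
Level of the 10 enzymes in CPM (log axis, a separate scale for each gene) in the Cdo1AKO libraries (red) and the control libraries (blue); symbols give the replicate number and bars the mean of 3. The groups are apart for Gpam, Gpat3, Gpat4 and Mogat2, and Cdo1AKO 2 (red triangle) stands far above the others for Agpat2, Dgat2 and Mogat2.

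The 3 genes of the first step encode enzymes in different membranes. Gpam encodes the acyltransferase of the outer mitochondrial membrane, and Gpat3 and Gpat4 encode related enzymes of the endoplasmic reticulum. Gpam (ENSMUSG00000024978, mm10 chromosome 19, 55069734 to 55099451 on the minus strand) had 67.7, 89.2 and 58.9 CPM in Cdo1AKO 1 to 3, against 173, 120 and 158 CPM in control 1 to 3. The highest Cdo1AKO library stayed below the lowest control. Its log2 fold change was -1.07 ± 0.22 (SE, 3 libraries per group; edgeR adjusted p = 0.309).

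RefSeq lists start sites of Gpam at a pair of places, and the 250 bases before each are shown. Gpam is 1 of the 3 enzymes of the first step and, like Gpat3 and Gpat4, has its lowest levels in the 3 Cdo1AKO libraries. The 250 bases before Agpat2, which has no such pattern, are shown beside them. All are on GRCm38.p6, the assembly also known as mm10, and run 5′ to 3′ on the gene's strand. Capitals mark matches, on either strand, to the letters CACGTG (an E-box), TCACNCCA (a form of the sterol response element), CCAAT and GGGCGG (a GC box); overlapping GC boxes run together.
Gpam, upstream start, chr19:55127239-55127488, minus strand: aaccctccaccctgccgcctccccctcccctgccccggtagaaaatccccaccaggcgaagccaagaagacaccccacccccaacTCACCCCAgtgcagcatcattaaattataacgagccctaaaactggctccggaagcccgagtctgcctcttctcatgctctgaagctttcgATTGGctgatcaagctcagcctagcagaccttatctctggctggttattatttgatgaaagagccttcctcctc
Gpam, downstream start, chr19:55099478-55099727, minus strand: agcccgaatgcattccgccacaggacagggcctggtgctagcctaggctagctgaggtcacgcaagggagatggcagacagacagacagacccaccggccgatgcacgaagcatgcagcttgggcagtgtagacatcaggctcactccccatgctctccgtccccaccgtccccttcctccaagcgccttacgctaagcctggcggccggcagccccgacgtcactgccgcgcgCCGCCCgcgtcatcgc
Agpat2, chr2:26604418-26604667, minus strand: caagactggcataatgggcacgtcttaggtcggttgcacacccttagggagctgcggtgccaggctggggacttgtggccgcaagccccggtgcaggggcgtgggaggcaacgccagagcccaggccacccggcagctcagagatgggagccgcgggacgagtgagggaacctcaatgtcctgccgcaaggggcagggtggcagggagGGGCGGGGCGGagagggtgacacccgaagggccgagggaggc

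The upstream Gpam window held 1 match to TCACNCCA and 1 to CCAAT, the downstream one 1 GC box, and that of Agpat2 2 GC boxes. Of 32851 windows of this length in the RefSeq promoter table, 3.67% hold TCACNCCA, 33.8% CCAAT, 32.7% GGGCGG and 6.02% CACGTG, which none of these 3 windows holds. The windows of Lpin1 and Mogat1 held none of the 4 motifs, nor did that of Agpat3. That of Gpat3, which shares the pattern of Gpam, held 3 GC boxes and neither TCACNCCA nor CCAAT. The other 4 genes were not searched. A match is a run of letters and no evidence of binding. By the GENCODE annotation, the downstream Gpam window lies inside longer Gpam transcripts and overlaps an exon of an antisense transcript, and the upstream window overlaps no annotated transcript. The table's Gpam gene ends 27787 bases short of the upstream start, so reads from the first exon there are outside the counted span.

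Gpat3 (ENSMUSG00000029314, chromosome 5, 100845713 to 100899102 on the plus strand) had 36.9, 60.5 and 33.6 CPM in Cdo1AKO 1 to 3, against 123, 72.8 and 108 CPM in control 1 to 3. Again the groups were apart, with Cdo1AKO 2 nearest to control 2. The log2 fold change was -1.21 ± 0.30 (edgeR adjusted p = 0.345). An antisense gene overlaps Gpat3 and had at most 76 counts in a Cdo1AKO library and 126 in a control library, against 612 or more for Gpat3. Gpat4 (ENSMUSG00000031545, chromosome 8, 23171265 to 23208346 on the minus strand), the most abundant of the 3 per length, had 169, 205 and 157 CPM in Cdo1AKO 1 to 3. In control 1 to 3 it had 531.5, 265 and 406 CPM. The Cdo1AKO libraries spanned a 1.30-fold range and the controls a 2.01-fold range, with no overlap, and the log2 fold change was -1.18 ± 0.28 (edgeR adjusted p = 0.345).

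Groups without overlap, found for 18.6% of all tested genes, are counted by direction. On the lower side they numbered 3 of the 10 enzymes, Gpam, Gpat3 and Gpat4, against 9.73% of all genes, and on the higher side 1 of the 10, Mogat2, against 8.87%. At an unadjusted p under 0.05 in edgeR the same 3 genes were lower, against 5.71% of all genes, and Mogat2 was higher, against 4.66%. The 3 acyltransferases kept this pattern in Cdo1AKO 2, where Gpam stood at 0.592, Gpat3 at 0.599 and Gpat4 at 0.510 of the control mean. Of 12 adipocyte markers, 5 were below all controls in that library, 3 within their range and 4 above all of them. Those below were Adrb3, Cfd, Pck1, Acvr1c and Cidea, those within were Adipoq, Plin1 and Car3, and those above were Lep, Fabp4, Retn and Cidec. The adrenergic receptor gene Adrb3 had 94.8 CPM there, against 446 to 565 CPM in controls, and the leptin gene Lep 8301 CPM, against 1527 to 1655 CPM in controls. In Cdo1AKO 1 and 3, 11 of the 12 markers were below all controls in both libraries, as were 27.0% of all tested genes. So were 12 of 13 mitochondrially encoded mRNAs, 3 of 6 endothelial markers and 0 of 9 macrophage markers. For Cdo1AKO 2 alone, the share of all genes on each side of the controls was not measured. The part of these markers in the result was not tested. In bulk tissue, fewer adipocytes and less RNA per adipocyte cannot be told apart.

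With a term for lymph node transcripts, Gpam (-1.08 ± 0.15, adjusted p = 0.0254), Gpat3 (-1.24 ± 0.18, adjusted p = 0.0254) and Gpat4 (-1.15 ± 0.20, adjusted p = 0.0357) fell in Cdo1AKO by edgeR, 3 of the 10 against 1.87% of all genes. Of the 10, 0 rose in that fit, against 2.26% of all genes, and 4.13% of all genes passed in either direction. The term sets apart only control 1 and Cdo1AKO 2, 1 library per group, and was derived from the same counts. The proportions of the 3 genes overlapped between groups. Per length, Gpat4 took 43.0% to 48.5% of their summed transcripts in Cdo1AKO and 43.2% to 49.8% in controls, and Gpam took 31.7% to 33.0% in Cdo1AKO and 28.3% to 34.2% in controls. The log2 ratio of Gpat4 to Gpam differed by -0.061 between the groups (exact permutation p = 0.8, two-sided) and that of Gpat3 to Gpam by -0.16 (exact permutation p = 0.2, two-sided). These are 2 of 5 ratios tested, with Benjamini-Hochberg adjusted values of 1.0 and 0.333, and 0.1 is the smallest p that 3 against 3 libraries allow. Summed, the 3 genes had 53.5, 71.2 and 48.5 CPM per kilobase in Cdo1AKO 1 to 3, against 160, 91.8 and 133 in control 1 to 3.

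**Figure D2:**
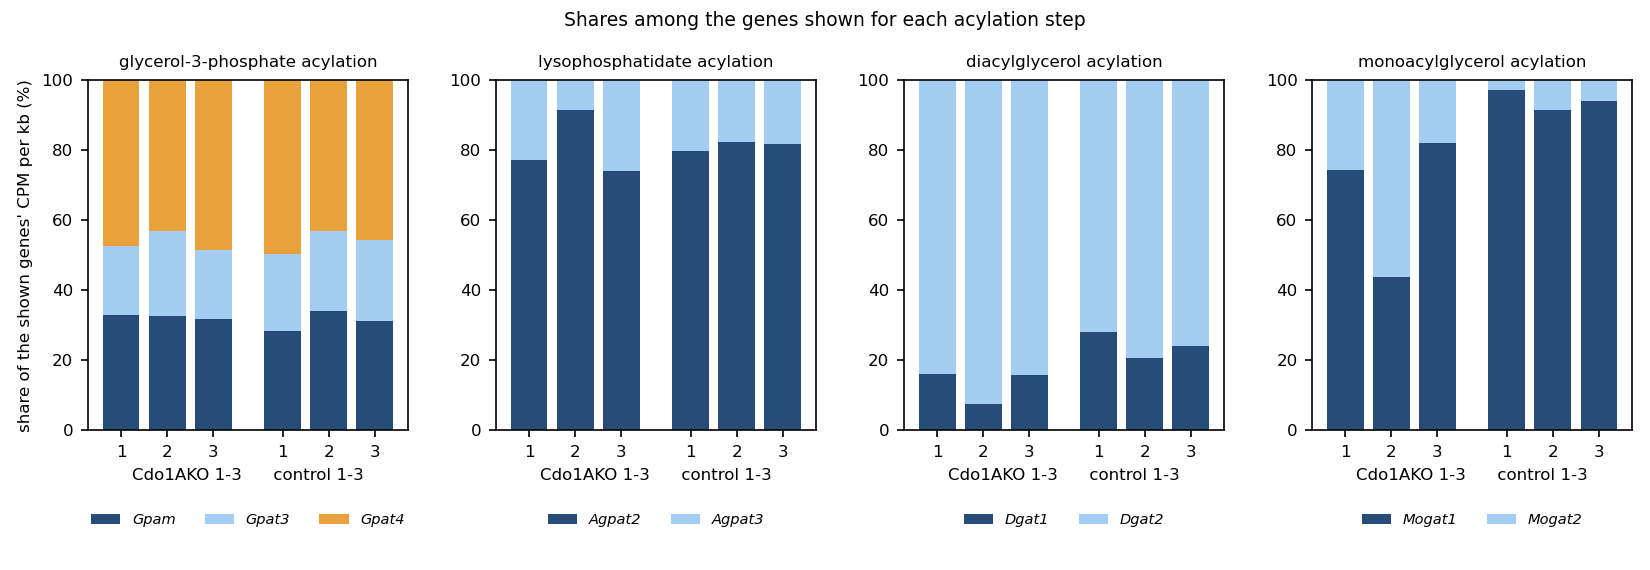
Share of each gene in the summed CPM per kilobase of the genes shown for its acylation step (percent; other genes of a step, such as Agpat1, are left out), in Cdo1AKO 1 to 3 (left) and control 1 to 3 (right). Shares of Gpam, Gpat3 and Gpat4 overlap between groups, Dgat2 holds 83.9% to 92.5% of its pair in Cdo1AKO against 71.9% to 79.2% in controls, and Mogat2 holds 17.9% to 56.3% of its pair in Cdo1AKO against 2.74% to 8.56% in controls.

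For the next step, acylation of lysophosphatidate, the 10 enzymes include Agpat2, the main such enzyme of fat, and Agpat3, a more widely expressed relative. Other genes of the step lie outside the 10, among them Agpat1, at 59.6 to 71.5 CPM in Cdo1AKO and 69.3 to 84.9 CPM in controls. Agpat2 (ENSMUSG00000026922, chromosome 2, 26593057 to 26604417 on the minus strand) had 177, 739 and 155 CPM in Cdo1AKO 1 to 3, against 297, 306 and 308 CPM in control 1 to 3. The controls lay within 1.04-fold of each other, and the Cdo1AKO libraries stood on both sides of them, with 2 near 0.548 of the control mean and Cdo1AKO 2 at 2.43 times it. The log2 fold change was 0.23 ± 0.61 (edgeR adjusted p = 0.910) and -0.87 ± 0.10 without Cdo1AKO 2 (adjusted p = 0.0719). Egfl7, an endothelial gene on the opposite strand, overlaps Agpat2 and had at most 3142 counts in a Cdo1AKO library and 2216 in a control library, against 2830 to 11482 counts of Agpat2 in Cdo1AKO and 4841 to 5747 in controls. Counts are not stated to use strand, so reads of the pair cannot be told apart where they overlap. Agpat3 (ENSMUSG00000001211, chromosome 10, 78269178 to 78352489 on the minus strand) was steadier, at 192, 249 and 199 CPM in Cdo1AKO 1 to 3, against 276, 239 and 252 CPM in control 1 to 3. The groups overlapped through Cdo1AKO 2 and control 2, with a log2 fold change of -0.26 ± 0.17 (edgeR adjusted p = 0.632). The ratio of Agpat2 to Agpat3 did not separate the groups (difference of the log2 ratio 0.11, exact permutation p = 1.0, two-sided).

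Lpin1 (ENSMUSG00000020593, chromosome 12, 16535669 to 16610966 on the minus strand) encodes lipin 1, the main phosphatidate phosphatase of fat cells, which also acts as a coactivator in the nucleus. It had 304, 483 and 275 CPM in Cdo1AKO 1 to 3. In control 1 to 3 it had 1309, 333 and 838 CPM, a 3.93-fold range and the widest among controls of the 10 genes. Control 2 lay between the Cdo1AKO libraries, so the groups overlapped. The log2 fold change was -1.22 ± 0.51 (edgeR adjusted p = 0.488), -0.74 without control 1 and -1.60 without control 2.

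The last step is shared by Dgat1 and Dgat2, enzymes of unrelated protein families that make the same product. Dgat1 (ENSMUSG00000022555, chromosome 15, 76502015 to 76511953 on the minus strand) had 127, 279 and 120.5 CPM in Cdo1AKO 1 to 3, against 353.5, 243 and 304 CPM in control 1 to 3. Cdo1AKO 1 and 3 were near 0.412 of the control mean and Cdo1AKO 2 above control 2. The log2 fold change was -0.78 ± 0.37 (edgeR adjusted p = 0.540) and -1.28 ± 0.18 without Cdo1AKO 2 (adjusted p = 0.0719).

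Dgat2 (ENSMUSG00000030747, chromosome 7, 99153658 to 99182719 on the minus strand), which acts at the endoplasmic reticulum and on lipid droplets, had 665.5, 3487 and 642 CPM in Cdo1AKO 1 to 3, against 911, 937 and 961 CPM in control 1 to 3. The controls spanned a 1.05-fold range. Cdo1AKO 1 and 3 lay below all of them, and Cdo1AKO 2 was at 3.72 times their mean. The log2 fold change was 0.77 ± 0.70 (edgeR adjusted p = 0.721), and it was -0.52 ± 0.10 without Cdo1AKO 2 (adjusted p = 0.0876). Control 1, which like Cdo1AKO 2 lacks lymph node transcripts, had 911 CPM, the lowest of the 3 controls. With 1 such library per group, the part of lymph node content in the Dgat2 level was not tested. Of 7 fibroblast and progenitor markers, 4 were above all controls in Cdo1AKO 2, Col1a1, Col3a1, Lum and Pi16, and Pdgfra, Dpp4 and Dcn were within their range. Their sum was 4450 CPM in Cdo1AKO 2, of which the collagen genes Col3a1 and Col1a1 gave 2743 and 946 CPM, against sums of 1670 and 1569 CPM in Cdo1AKO 1 and 3 and 1241 to 1719 CPM in controls. Cdo1AKO 2 was also above all controls for 5 of 6 endothelial markers, 7 of 9 macrophage markers and 9 of 13 mitochondrially encoded mRNAs. It was above them for 4 of 12 adipocyte markers and for 0 of 5 tested Schwann cell and nerve markers. Over all tested genes, Cdo1AKO 2 was the highest of the 6 libraries for 31.7%. The part of these markers in the result was not tested.

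Although neither gene passed, their proportion was apart between the groups. Per length, Dgat2 held 83.9%, 92.5% and 84.1% of the transcripts of both genes in Cdo1AKO 1 to 3, against 71.9%, 79.2% and 75.8% in control 1 to 3. Every Cdo1AKO library was above every control, the 2 libraries with low Dgat2 included. In Cdo1AKO 2, Dgat2 was at 3.72 times its control mean. In Cdo1AKO 1 and 3, the mean of Dgat1 was 0.412 of its control mean. Groups were apart for 18.6% of single tested genes, and the share over gene pairs was not measured. The log2 ratio of Dgat2 to Dgat1 averaged 2.80 ± 0.72 in Cdo1AKO and 1.64 ± 0.29 in controls (SD, n = 3 each; exact permutation p = 0.1, two-sided, adjusted 0.25 over the 5 ratios), and 0.1 is the smallest p this design allows.

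Mogat1 and Mogat2 encode monoacylglycerol acyltransferases, relatives of Dgat2 in protein family. Mogat1 (ENSMUSG00000012187, chromosome 1, 78510991 to 78538173 on the plus strand) had 9.45, 16.02 and 10.04 CPM in Cdo1AKO 1 to 3, against 20.3, 15.0 and 19.8 CPM in control 1 to 3. Cdo1AKO 2 lay above control 2, and the log2 fold change was -0.64 ± 0.26 (edgeR adjusted p = 0.485). A protein-coding gene on the opposite strand, BC035947, overlaps Mogat1 and had at most 97 counts in a Cdo1AKO library and 194 in a control library, against 183 to 369 counts of Mogat1, so reads of the pair cannot be told apart without strand.

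Mogat2 (ENSMUSG00000052396, chromosome 7, 99219084 to 99238619 on the minus strand) had 77, 377 and 47 counts in Cdo1AKO 1 to 3, against 11, 31 and 28 counts in control 1 to 3. In CPM these were 3.85, 24.3 and 2.58 in Cdo1AKO 1 to 3 and 0.675, 1.66 and 1.501 in control 1 to 3. All Cdo1AKO libraries were above all controls, and Cdo1AKO 2 was 7.55 times the mean of Cdo1AKO 1 and 3. The log2 fold change was 2.98 ± 0.96 (edgeR adjusted p = 0.397), 1.32 ± 0.46 without Cdo1AKO 2 (adjusted p = 0.153), and it passed in the authors' deposited table (2.998, adjusted p = 0.0229). Mogat2 held 25.7%, 56.3% and 17.9% of the per-length transcripts of the pair in Cdo1AKO 1 to 3, against 2.74%, 8.56% and 6.05% in control 1 to 3. The log2 ratio of Mogat2 to Mogat1 was -1.12 ± 1.33 in Cdo1AKO and -4.17 ± 0.89 in controls (SD, n = 3 each; exact permutation p = 0.1, two-sided, adjusted 0.25). Summed, the pair had 8.16, 23.5 and 7.85 CPM per kilobase in Cdo1AKO 1 to 3, against 13.4, 10.6 and 13.5 in control 1 to 3. An antisense gene, Gm45012, overlaps Mogat2 and had at most 12 counts in a Cdo1AKO library and 4 in a control library. Without strand, its reads cannot be told apart from those of Mogat2 where they overlap.

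**Figure D3:**
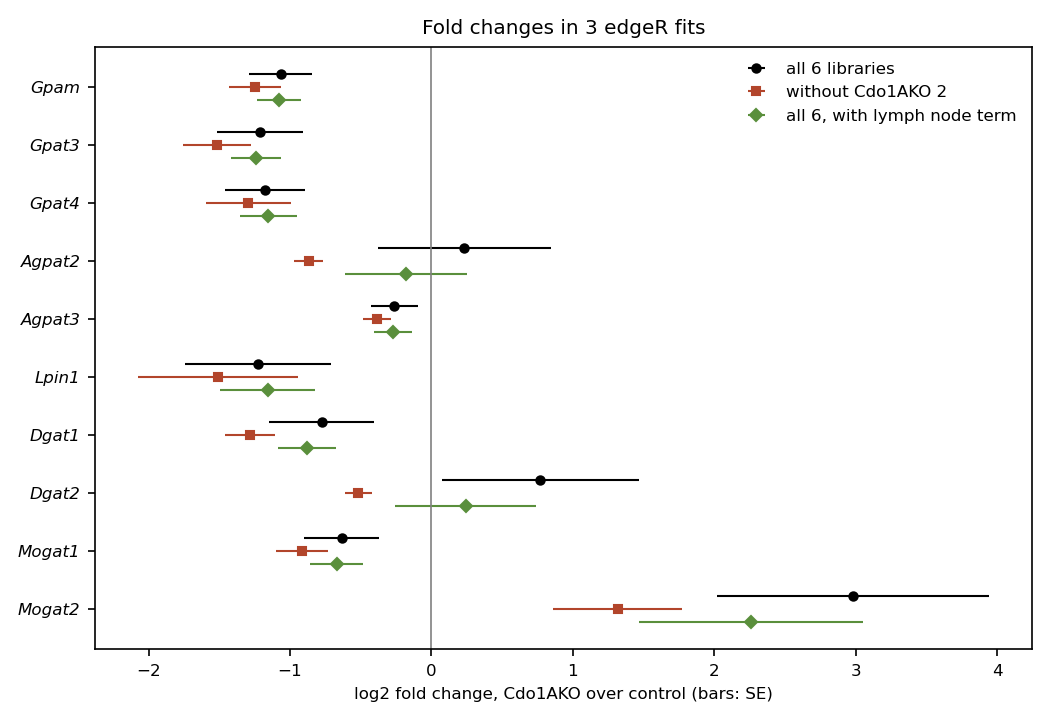
Log2 fold change of Cdo1AKO over control for the 10 enzymes with its SE (bars), from edgeR fits of all 6 libraries (black), without Cdo1AKO 2 (red) and with a lymph node term (green). Gpam, Gpat3 and Gpat4 stay between -1.52 and -1.07 in the 3 fits, while Agpat2 and Dgat2 cross 0 without Cdo1AKO 2, at -0.87 and -0.52. With the lymph node term Agpat2 also crosses 0, at -0.18, and Dgat2 does not, at 0.24.

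Leaving out Cdo1AKO 2, 9 of the 10 enzymes were lower and Mogat2 higher at an unadjusted p under 0.05 in edgeR, against 15.5% of all genes lower, 11.8% higher and 27.3% either way in that fit; 0 genes passed after adjustment. Within the 4 libraries with lymph node transcripts, 7 of the 10 fell by edgeR against 7.7% of all genes: Gpam, Gpat3, Gpat4, Agpat2, Dgat1, Dgat2 and Mogat1. Of the 10, 0 rose there, against 7.65% of all genes, and 15.3% of all genes passed in either direction. There Dgat1 had -1.15 ± 0.14 (adjusted p = 0.00535), Agpat2 -0.89 ± 0.12 (adjusted p = 0.00658) and Dgat2 -0.54 ± 0.11 (adjusted p = 0.0236), each log2 fold change with its SE from 2 libraries per group. That fit rests on Cdo1AKO 1 and 3, the pair of libraries most alike, and the 2 libraries without lymph node transcripts are 1 per group and allow no test. Both Cdo1AKO 1 and Cdo1AKO 3 were below all controls for 9 of the 10 enzymes, as they were for 27.0% of all tested genes. Cdo1AKO 2 was the highest of the 6 libraries for 3 of the 10, Agpat2, Dgat2 and Mogat2, a share near that of all genes (31.7%).

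Ordered by level per length, Dgat2 came first in Cdo1AKO with a mean of 518 CPM per kilobase, against 304 in controls. Agpat2 was next at 168 in Cdo1AKO and 143 in controls, then Dgat1 at 57.4 in Cdo1AKO and 98.3 in controls, and Lpin1 at 36.6 in Cdo1AKO and 85.5 in controls. Agpat3 had 27.4 in Cdo1AKO and 32.8 in controls, Gpat4 26.5 and 60.0, Gpam 18.8 and 39.3, and Gpat3 12.5 and 28.8. Mogat1 had 7.60 in Cdo1AKO and 11.8 in controls, and Mogat2 5.57 and 0.697. In controls Dgat2 and Agpat2 stood apart from each other and from the rest, whereas Dgat1 and Lpin1 overlapped within their SDs of 18.1 and 50.5. Lpin1 overlapped Gpat4 likewise, and Agpat3 lay within the SDs of Gpam (7.13) and Gpat3 (7.32). Thus the same 4 genes were the most abundant in both groups, while Agpat3, below Gpat4 and Gpam in controls, stood above both by mean in Cdo1AKO, where it lay within the SD of Gpat4 (3.69). The SDs of Dgat2 (531) and Agpat2 (155) in Cdo1AKO were close to their means, through Cdo1AKO 2. No run of 50 bases was shared between transcripts of any of the 10 genes in GENCODE, so reads of that length match 1 member only.

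Dgat2 and Mogat2 are neighbours on chromosome 7, 36364 bases apart on the same strand. The tested genes within 200 kilobases of the pair, looked at after the values of the pair were seen, were Uvrag, Map6, Serpinh1 and Gdpd5. Serpinh1, a collagen chaperone gene that starts 170.5 kilobases from the Dgat2 start, had 225, 1044 and 222 CPM in Cdo1AKO 1 to 3, against 289, 342 and 315 CPM in control 1 to 3, a pattern much like that of Dgat2. Map6, a microtubule-associated protein gene between Mogat2 and Serpinh1, had 16.1, 46.7 and 14.8 CPM in Cdo1AKO 1 to 3, against 11.5, 15.1 and 13.9 CPM in control 1 to 3. Uvrag, an autophagy gene on the other side of Dgat2, had 58.8, 70.7 and 54.5 CPM in Cdo1AKO 1 to 3, against 39.4, 58.7 and 48.2 CPM in control 1 to 3. Gdpd5, a glycerophosphodiester phosphodiesterase gene, had 21.7, 29.4 and 19.65 CPM in Cdo1AKO 1 to 3, against 13.25, 11.8 and 13.5 CPM in control 1 to 3. It was higher in each Cdo1AKO library than in all controls, with a log2 fold change of 0.87, and of 0.69 without Cdo1AKO 2. Cdo1AKO 2 was 4.67 times the mean of Cdo1AKO 1 and 3 for Serpinh1 and 3.03 times for Map6, but 1.25 times for Uvrag and 1.42 times for Gdpd5; 9.61% of all tested genes were at least 2-fold higher in that library by the same measure.

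**Figure D4:**
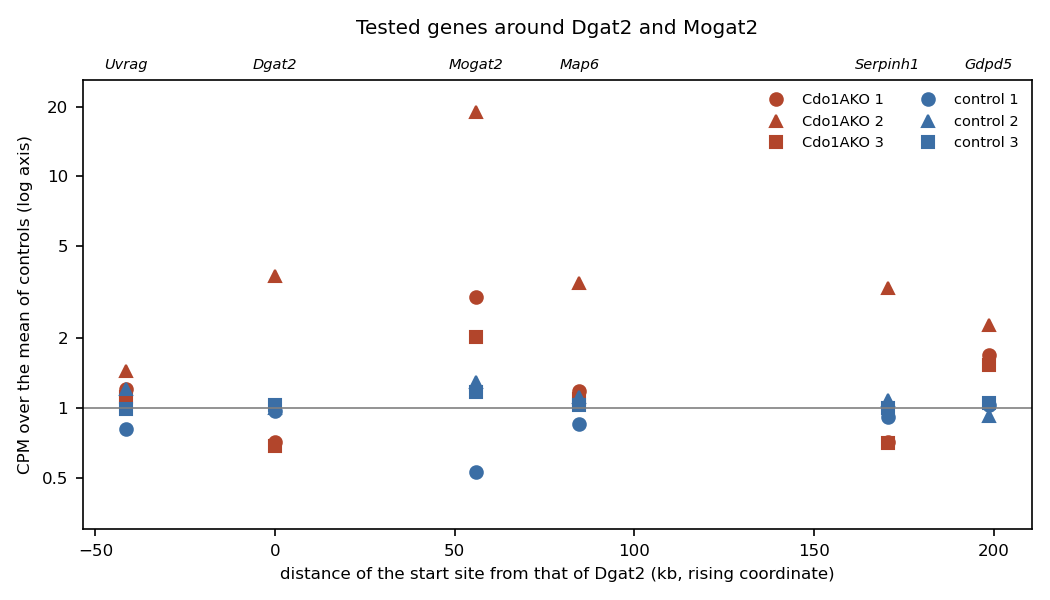
Tested genes around Dgat2 and Mogat2 by the distance of their start site from that of Dgat2 (kilobases) and by CPM over the mean of the 3 controls (log axis), for each library. Cdo1AKO 2 (red triangles) is at 3.72 times the control mean for Dgat2 and at 18.97 times for Mogat2, and is also high for Map6 and Serpinh1.

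Among 11187 other protein-coding genes with a mean of at least 5 CPM, those closest in pattern to Gpam over the 6 libraries were Acaca, Oplah and Klhl2. Their root-mean-square distances were 0.070, 0.080 and 0.082 on the centred log2 scale. The nearest of the 10 enzymes was Gpat3 at 0.138. Acaca, acetyl-CoA carboxylase of fatty acid synthesis, had 147, 208 and 142 CPM in Cdo1AKO 1 to 3, against 414, 305 and 360 CPM in control 1 to 3. Closest to Dgat2 were the alanine aminotransferase gene Gpt (0.085), Bcl6b (0.090) and Serpinh1 (0.092), with Agpat2 the nearest of the 10 enzymes at 0.241. Closest to Mogat2 were Ncan (0.139), the stearoyl-CoA desaturase gene Scd2 (0.245) and Kcnj14 (0.259), with Dgat2 the nearest of the 10 enzymes at 0.916. Scd2 had 90.7, 747 and 80.4 CPM in Cdo1AKO 1 to 3, against 24.7, 71.0 and 56.6 CPM in control 1 to 3. Likeness over 6 libraries is a description and follows the libraries' shared differences. Each nearest outside gene was picked from 11187 candidates and each nearest enzyme from 9. A smaller distance outside the 10 enzymes therefore carries no meaning.

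Other genes of glycerolipid synthesis are given as lists for comparison, with no test between lists. The median log2 fold change was -0.71 over the 10 enzymes and 0.058 over all tested genes. In edgeR 0 members of any other list passed the adjusted test. At an unadjusted p under 0.05, 5.71% of all genes were lower and 4.66% higher. Medians of these lists depended on Cdo1AKO 2, so each is also given without it; that of all genes is then 0.012 and that of the 10 enzymes -1.08. Of 5 tested acyltransferases outside the 10, 0 were past an unadjusted p of 0.05 (median -0.019, and -0.15 without Cdo1AKO 2); Agpat1 had -0.28 ± 0.15 and Tmem68, whose human protein makes triglyceride without either diacylglycerol acyltransferase of the classical pathway, 0.16 ± 0.16. Of 5 tested phosphatidate and lipid phosphate phosphatases, 0 were past it (median 0.12, and -0.33 without Cdo1AKO 2), with Lpin3 at 0.73 ± 0.71 and Plpp2 at 0.30 ± 0.30. Lpin3 had 11.05, 44.65 and 8.12 CPM in Cdo1AKO 1 to 3, against 19.02, 7.33 and 12.0 CPM in control 1 to 3, and its log2 fold change was -0.41 without Cdo1AKO 2. Of 10 genes that supply acyl-CoA and glycerol 3-phosphate, 1 was lower past it, Pck1, and 0 higher (median -0.11, and -0.41 without Cdo1AKO 2). Pck1, phosphoenolpyruvate carboxykinase of glyceroneogenesis, had 2571, 1223 and 2458 CPM in Cdo1AKO 1 to 3, against 6944, 3970 and 5446 CPM in control 1 to 3 (-1.39 ± 0.43, edgeR adjusted p = 0.392), and passed in the authors' deposited table (adjusted p = 0.0235). The water and glycerol channel gene Aqp3 had 1.99 ± 1.203, at 0.0643 to 5.82 CPM in Cdo1AKO and 0.552 to 1.66 CPM in controls.

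Of 5 tested genes of the lipin phosphatase and of lipid droplet formation, 2 were lower past an unadjusted p of 0.05 (median -0.040, and -0.68 without Cdo1AKO 2): Tmem159, of droplet assembly, at -0.69 ± 0.24, and Fitm2, of droplet budding, at -0.77 ± 0.27. Of 17 genes of the phospholipid branch, which draws on the same phosphatidate and diacylglycerol, 2 were lower and 0 higher (median -0.060, and -0.18 without Cdo1AKO 2), Cept1 at -0.61 ± 0.19 and the cardiolipin synthase gene Crls1 at -0.89 ± 0.27. Of 9 transcriptional regulators, 5 were lower and 0 higher (median -0.61, and -0.83 without Cdo1AKO 2). The coactivator Ppargc1a had 5.60, 6.95 and 5.16 CPM in Cdo1AKO 1 to 3, against 15.9, 13.5 and 17.1 CPM in control 1 to 3. The fatty acid receptor gene Ppara had 3.65, 3.28 and 5.32 CPM in Cdo1AKO 1 to 3, against 12.2, 12.6 and 14.9 CPM in control 1 to 3. Groups were apart for both, with log2 fold changes of -1.39 ± 0.21 and -1.69 ± 0.25 (adjusted p = 0.230 for each by edgeR), and both passed in the authors' deposited table (adjusted p = 9.56e-05 and 3.3e-05).

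By library, the medians of the 10 enzymes and of the adipocyte markers were both low in Cdo1AKO 1 and 3. In Cdo1AKO 2 both medians cover members that lay on either side of the controls, 3 of the 10 enzymes below and 3 above. Over the 10 enzymes the median difference from the control mean, on the log2(CPM + 0.5) scale, was -1.02, -0.13 and -1.13 in Cdo1AKO 1 to 3, and -0.28 to 0.19 in the controls. Over 12 adipocyte markers, Pck1 among them, it was -1.02, 0.084 and -0.97 in Cdo1AKO 1 to 3, and -0.30 to 0.29 in the controls. The summed CPM of these markers was 27070 to 61410 in Cdo1AKO and 44830 to 71550 in controls. The other marker lists are given by their sums. Mitochondrially encoded mRNAs, 13 genes, summed to 21270, 50490 and 21990 CPM in Cdo1AKO 1 to 3, against 30620 to 39700 CPM in controls. Their median difference from the control mean was -0.86, 0.42 and -0.78 in Cdo1AKO 1 to 3, so they too were low in Cdo1AKO 1 and 3. The sum of 10 T cell and natural killer cell markers was 937, 17.1 and 959 CPM in Cdo1AKO 1 to 3, against 20.4, 340.4 and 204 CPM in control 1 to 3. Macrophage markers, 9 genes, summed to 865 to 902 CPM in Cdo1AKO and 609.6 to 775 CPM in controls. Endothelial markers, 6 genes, summed to 799.5, 1549 and 753 CPM in Cdo1AKO 1 to 3, against 789 to 1052 CPM in controls. Schwann cell and nerve markers, 6 genes, summed to 60.8 to 102 CPM in Cdo1AKO and 125 to 151 CPM in controls, and skeletal muscle markers, 8 genes with Myh4 at 0, to 141 to 260.4 CPM in Cdo1AKO and 87.2 to 168 CPM in controls. Epithelial markers, 8 genes with Csn3 at 0, reached at most 3.29 CPM in Cdo1AKO and 2.63 CPM in controls. The part of these differences in the levels of the 10 enzymes was not tested.

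**Figure D5:**
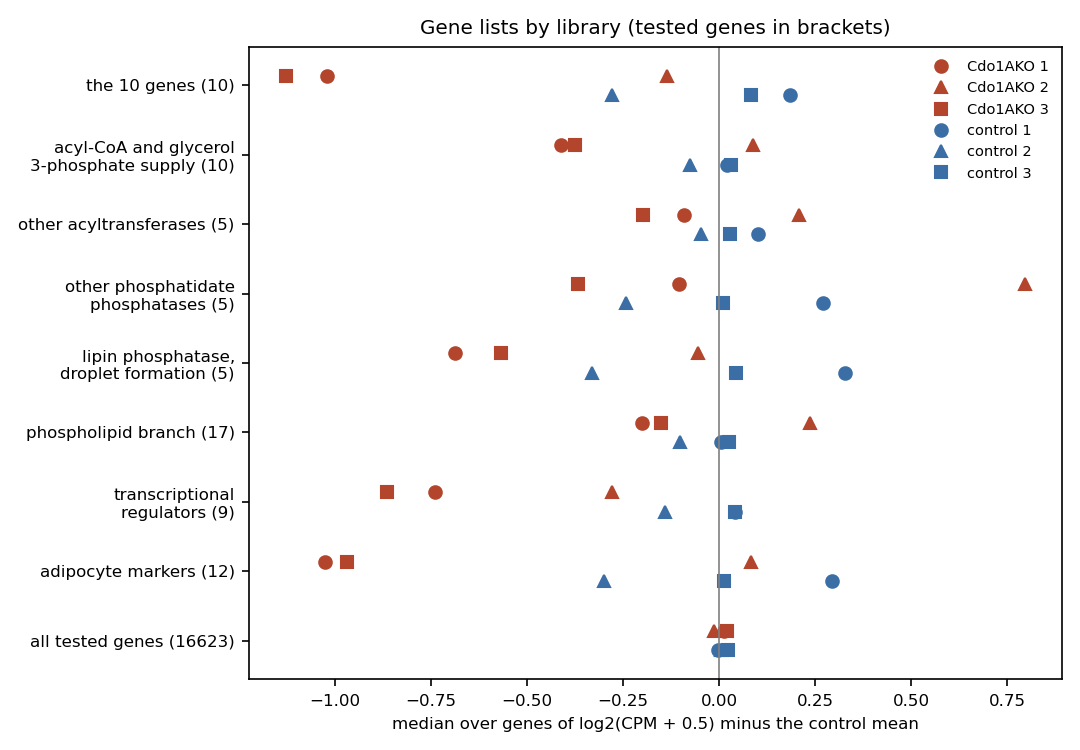
Median over the tested genes of each list of the difference from the control mean, on the log2(CPM + 0.5) scale, by library (Cdo1AKO red and upper, control blue and lower in each row; symbols give the replicate number). The 10 enzymes and the adipocyte markers have similar values in Cdo1AKO 1 and 3, near -1.0, and all tested genes lie near 0.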

How the data were processed

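RNA was sequenced from 3 Cdo1AKO and 3 control samples of inguinal fat, grouped by their titles; the table's WT columns were matched by the genotype field and number. The authors deposited raw counts per gene, per the file headers, with FPKM values deposited by the authors, which were not used, and their own comparison. The submitters' processing notes name DESeq2 1.20.0, mm10, HISAT2 2.0.5 and featureCounts 1.5.0-p3, without roles; no strand setting is stated. The other measures in the authors' deposited table are log2 fold changes, p-values and group means of normalized signal, of which the first and the adjusted p-values are quoted.

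Genes were filtered with edgeR 4.0.16 filterByExpr by group, scaled by TMM and tested with the quasi-likelihood test in R 4.3.3, with group as the only term and Benjamini-Hochberg adjustment over 16623 genes at a threshold of 0.05. SE is the absolute log2 fold change over the square root of F. The precision rests on 16275184 to 19205804 counts per library and 3 libraries per group. Alternatives were RLE and upper-quartile scaling, no filter, DESeq2 1.42.0, limma-voom (limma 3.58.1), a replicate block, each library left out, and a lymph node term marking libraries where the median CPM of 13 lymph node and B cell markers was above 5; a fit of those 4 libraries alone was added after seeing the data.

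The members and gene lists were chosen with earlier results of these data known. All 10 members are named, the 2 genes with the smallest p from each pathway list, and the 3 nearest in pattern to Gpam, Dgat2 and Mogat2; the chromosome 7 neighbours and the adipocyte and fibroblast markers named singly, other than Adipoq and Plin1, were chosen after their values were seen. Log2 ratios were compared with an exact permutation test. RefSeq promoter windows matched 6 of the 10 genes.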

Additional observations from a re-analysis of the deposited data

How the results depend on the processing

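The median log2 fold change of the 10 enzymes, -0.71, ranged from -1.08 to -0.54 over the 14 alternatives, both ends being fits that leave out a library. Genes passing numbered 0 with each library left out, with RLE and upper-quartile scaling, without the filter and with limma-voom, 271 with DESeq2, 686 with the lymph node term and 2617 in the 4 libraries with lymph node transcripts. Members at an unadjusted p under 0.05 numbered 4 (10.4% of all genes), 7 with the lymph node term (22.9%) and 10 in those 4 libraries (32.0%), and 3 to 10 with a library left out, the 10 being without Cdo1AKO 2 (27.3%). Agpat2, 0.23, turned to -0.12 with limma-voom, -0.18 with the replicate block, -0.18 with the lymph node term, -0.87 without Cdo1AKO 2 and -0.89 in the 4 libraries. Dgat2, 0.77, turned to -0.52 without Cdo1AKO 2 and -0.54 in the 4 libraries. With 1 library left out at a time Agpat2 ranged from -0.87 to 0.59 and Dgat2 from -0.52 to 1.15. Cdo1AKO 2 has the highest level of both genes; for the other settings the cause was not tested. The other 8 enzymes kept their direction in all 14, and Mogat2 ranged from 1.02 to 3.45. Gpam ranged from -1.25 to -0.94, Gpat3 from -1.52 to -1.05 and Gpat4 from -1.41 to -0.93. Replicate numbers gave no sign of pairing: the deviations of same-numbered libraries correlated at -0.661, -0.668 and 0.449. The highest correlation, 0.707, was between Cdo1AKO 2 and control 1, the libraries without lymph node transcripts. A pairing hidden under that difference would be missed, so the check cannot exclude pairing. With the replicate block 0 genes passed and 909 had an unadjusted p under 0.05, and Gpam had -1.07 (adjusted p = 0.896 by edgeR). Mogat2, at 11 to 31 counts in controls, is the member for which depth limits precision most.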
